A study of Mus musculus with 6 samples.

Results

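The interferon-inducible GTPases described are 8 of 27179 genes in the bulk table, namely the guanylate-binding proteins (GBPs) Gbp2, Gbp3 and Gbp7 and the immunity-related GTPases (IRGs) Igtp, Irgm1, Irgm2, Iigp1 and Tgtp1. The 8 members were chosen by name, with earlier results of these data known, and all 8 were found in the bulk table and in the single-cell tables. Immature cardiomyocytes (imCMs) of neonatal C57BL/6 mouse hearts were grown together with passaged cardiac fibroblasts, which were neonatal (NFs) in one arm and adult (AFs) in the other. The labels name no genetic change and no drug in either arm. The plating ratio of fibroblasts to imCMs was higher in the AF arm, so the age of the fibroblasts and their number cannot be told apart. Bulk RNA of imCMs was measured in 2 imCM-NF and 2 imCM-AF libraries, and whether the 2 libraries of a group came from separate cultures is not stated. Cells were also measured singly on 2 nanowell chips (ICELL8), 1 labelled cardiomyocytes and 1 labelled fibroblasts, in which transcripts carry a unique molecular identifier (UMI).

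GBPs and IRGs are GTPases that cells make in response to interferons. They gather on the membranes around intracellular bacteria and parasites and help to break these membranes open or to mark them for autophagy. Interferon-gamma acts through the receptor chains Ifngr1 and Ifngr2. Its target genes carry gamma-activated sites (GAS) and interferon-stimulated response elements (ISRE), and factors such as Irf1 bind the latter. Among the IRGs, Irgm1, Irgm2 and Igtp are regulatory members that sit on the cell's own membranes, whereas Iigp1 and Tgtp1 are effector members that load onto the vacuole of a pathogen. Cardiomyocytes and fibroblasts are not immune cells, but both can respond to interferon.

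The stretches of DNA in front of the start sites are shown because each carries at least 1 of the 2 kinds of interferon element. The 110 bases upstream of the start are given 5′ to 3′ on the strand of the gene, from RefSeq on GRCm38.p6. Of the 8 members, 7 were in the promoter table, and Iigp1 is named only. For Gbp3 the table holds 2 start sites, and the stretch shown precedes one that lies downstream of the first base of the gene, so its end is inside the gene. Capitals mark matches to TTCNNNGAA, a GAS-like motif that reads the same on both strands, and, on either strand, to GAAA followed by any 2 bases and a further GAAA, an ISRE-like motif.

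Gbp2 (chr3:142620553-142620662, plus strand): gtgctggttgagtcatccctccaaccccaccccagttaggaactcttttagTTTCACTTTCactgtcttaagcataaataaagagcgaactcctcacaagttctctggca
Gbp3 (chr3:142559934-142560043, plus strand): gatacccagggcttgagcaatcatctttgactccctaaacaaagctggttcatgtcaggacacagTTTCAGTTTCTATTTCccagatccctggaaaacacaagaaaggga
Gbp7 (chr3:142530226-142530335, plus strand): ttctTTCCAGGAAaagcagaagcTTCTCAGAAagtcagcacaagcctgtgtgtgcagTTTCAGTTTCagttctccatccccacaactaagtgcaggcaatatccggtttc
Igtp (chr11:58199446-58199555, plus strand): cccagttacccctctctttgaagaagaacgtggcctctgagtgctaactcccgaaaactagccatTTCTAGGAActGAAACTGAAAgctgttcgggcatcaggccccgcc
Irgm1 (chr11:48871421-48871530, minus strand): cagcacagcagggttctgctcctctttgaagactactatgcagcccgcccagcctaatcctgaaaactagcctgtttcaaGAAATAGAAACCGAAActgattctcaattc
Irgm2 (chr11:58214867-58214976, plus strand): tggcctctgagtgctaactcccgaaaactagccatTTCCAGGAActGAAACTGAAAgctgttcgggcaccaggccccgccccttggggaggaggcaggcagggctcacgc
Tgtp1 (chr11:48992247-48992356, minus strand): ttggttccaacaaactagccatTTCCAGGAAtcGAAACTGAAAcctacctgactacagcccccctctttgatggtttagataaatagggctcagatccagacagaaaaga

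In windows of 300 bases, from 250 bases before to 50 bases after the start, the ISRE-like motif was present in all 7 members of the table and the GAS-like motif in 4, namely Gbp7, Igtp, Irgm2 and Tgtp1. Over all 32851 windows of the table, 3.44% held the ISRE-like motif, 8.30% the GAS-like motif and 0.454% both. In Igtp, Irgm2 and Tgtp1 the GAS-like motif began exactly 11 bases before the ISRE-like motif, and the same spacing was found in Tgtp2, the close paralog of Tgtp1. Igtp and Irgm2 are neighbours on chromosome 11 and shared an identical run of 38 bases in the stretches shown, which ends in the GAS-like motif. Irgm1 and Gbp3 each held a pair of overlapping ISRE-like motifs. A match of letters is a description of these windows and not a measured binding site.

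The bulk libraries held between 9278909 and 12088577 counts. Values are CPM, that is counts scaled to a common library total with TMM factors, and a gene was tested if it passed 1 CPM in at least 2 libraries. All cardiomyocyte markers of the list used were detected, and their sum ranged from 29910 CPM in imCM-NF replicate 2 to 42850 CPM in imCM-AF replicate 2. Fibroblast markers summed to 15480 and 17000 CPM in imCM-NF and to 10770 and 8525 CPM in imCM-AF. RNA of these markers was thus present in every library, and their sum was lower in imCM-AF. The log2 fold changes of the single markers, imCM-AF against imCM-NF, ranged from -1.87 (Postn) to -0.25 (Dcn). On the chips, 2482 wells held counts, 2247 wells passed the filters (1296 on the cardiomyocytes chip and 951 on the fibroblasts chip), and 269 well barcodes occurred on both chips. Each chip is 1 sample, so single-cell values are descriptions with no test.

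The member GTPases were higher in the imCM-AF than in the imCM-NF bulk libraries, which also held RNA of fibroblast markers. Of the 8 members, 7 passed the filter on low values and 6 of these were called higher in imCM-AF and 0 lower, where a call needed an adjusted p below 0.05 together with a log2 fold change (log2FC) beyond 0.58 on either side of 0. Over all 14041 tested genes, 11.1% were called, 6.15% higher and 4.99% lower. Because the members were chosen with earlier results known, these shares give a scale and are not a test of the set. The median log2 fold change of the 7 tested members was 0.97, against 0.001 over all tested genes. In all 7, both imCM-AF libraries lay above both imCM-NF libraries, a pattern that 32.1% of all tested genes shared. The summed members came to 476.8 and 299.1 CPM in imCM-NF and to 757.8 and 768.0 CPM in imCM-AF. In bulk RNA, fewer cells of a type and less RNA per cell cannot be told apart.

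Among the GBPs, which coat pathogen membranes as assemblies, Gbp3 (Entrez 55932, chromosome 3, 142560016 to 142573213) was at 47.5 and 30.0 CPM in imCM-NF and at 79.0 and 91.2 CPM in imCM-AF. The imCM-AF libraries were both higher, and the log2FC was 1.15 ± 0.15 (SE, n = 2 per group, adjusted p 2.73e-05 by edgeR). Gbp7 (Entrez 229900, chromosome 3, 142530336 to 142550151) was at 27.1 and 16.5 CPM in imCM-NF and at 37.4 and 40.4 CPM in imCM-AF. Its log2FC was 0.86 ± 0.16 (adjusted p 0.000791 by edgeR), and without imCM-NF replicate 2 it was 0.53 and no longer called. Gbp2 (Entrez 14469, chromosome 3, 142620663 to 142638008), the best studied of the mouse GBPs in resistance to parasites, was at 64.0 and 50.97 CPM in imCM-NF and at 81.0 and 86.7 CPM in imCM-AF. Its log2FC of 0.55 ± 0.11 (adjusted p 0.00134 by edgeR) lay under the fold threshold, and under 4 of 13 other settings it was called. The 3 genes lie in 1 cluster on chromosome 3, in which Gbp2b lies between Gbp3 and Gbp2, and Gbp2 overlaps a microRNA gene and Gbp3 a predicted gene in RefSeq, so a share of their counts is uncertain.

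All regulatory IRGs were called higher. Irgm1 (Entrez 15944, chromosome 11, 48865245 to 48871420), needed in mice for resistance to many intracellular pathogens, was at 146.2 and 96.9 CPM in imCM-NF and at 230.3 and 207.8 CPM in imCM-AF. That is a log2FC of 0.85 ± 0.14 (adjusted p 0.00033 by edgeR). Irgm2 (Entrez 54396, chromosome 11, 58214977 to 58222783) was at 70.0 and 43.8 CPM and then at 112.5 and 108.9 CPM, a log2FC of 0.97 ± 0.14 (adjusted p 0.000126 by edgeR). Igtp (Entrez 16145, chromosome 11, 58199556 to 58207592), also known as Irgm3, was at 66.9 and 35.9 CPM and then at 109.6 and 120.5 CPM. Its log2FC was 1.18 ± 0.17 (adjusted p 0.000122 by edgeR). The groups did not overlap for any of the 3.

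The largest change of a member was that of the effector Iigp1 (Entrez 60440, chromosome 18). It was at 54.9 and 24.9 CPM in imCM-NF and at 107.0 and 112.1 CPM in imCM-AF, a log2FC of 1.48 ± 0.20 (adjusted p 5.93e-05 by edgeR). The other effector, Tgtp1 (Entrez 21822, chromosome 11, 48985329 to 48992246), had 2 and 2 counts in imCM-NF and 10 and 7 counts in imCM-AF and did not pass the filter. With no filter its log2FC was 1.90 (adjusted p 0.119 by edgeR). Tgtp1 and Tgtp2 are near-identical, and only uniquely placed reads were kept, so the counts of both are uncertain.

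**Figure D1:**
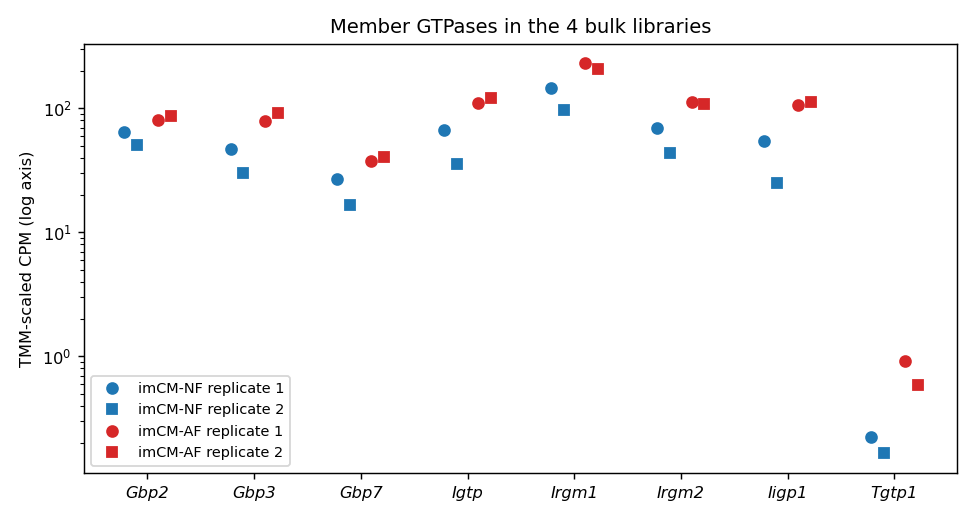
TMM-scaled CPM (log axis) of each member GTPase in the 2 imCM-NF libraries (blue) and the 2 imCM-AF libraries (red), with circles for replicate 1 and squares for replicate 2. For each gene both red points lie above both blue points, and the blue square, imCM-NF replicate 2, is below the blue circle.

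The 2 imCM-NF libraries differed for the members. Each of the 7 tested members was lower in imCM-NF replicate 2 than in replicate 1, and the sum was 1.59 times higher in replicate 1, while the sums of the imCM-AF libraries differed by a factor of 1.013. The cardiomyocyte markers differed in the same direction, by a factor of 1.37. Against imCM-NF replicate 1 the mean of the imCM-AF sums was 1.60 times higher, and against replicate 2 it was 2.55 times higher. Over all tested genes 4.99% were called lower in imCM-AF. The fibroblast markers, of which 6 of 10 were called lower, and the endothelial markers, of which 4 of 8 were, moved opposite to the members. Their part in the result was not tested.

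Per kilobase of exons, the order of mean levels in imCM-AF was Igtp (56.9 CPM per kilobase), Irgm1 (37.7), Gbp2 (33.3), Irgm2 (30.0), Gbp3 (26.1), Iigp1 (18.8) and Gbp7 (6.93), with Tgtp1 last (0.234). No neighbours in this order overlapped between the 2 imCM-AF libraries. In imCM-NF the order by mean was Igtp (25.4), Gbp2 (22.8), Irgm1 (20.9), Irgm2 (15.4), Gbp3 (11.9), Iigp1 (6.86) and Gbp7 (3.88), and each neighbouring pair down to Gbp7 overlapped between libraries.

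Other members of both families moved with them. Of 19 other GBP and IRG genes, 10 were tested, 8 were called higher and 0 lower, with a median log2FC of 1.57. Over all tested genes 6.15% were called higher. The IRG-like gene F830016B08Rik was measured in imCM-NF at 1.45 and 0.743 CPM and in imCM-AF at 5.75 and 6.72 CPM (log2FC 2.56 ± 0.32, adjusted p 2.16e-05 by edgeR). Gvin1, a very large interferon-inducible GTPase, was at 0.780 and 0.413 CPM and then at 3.01 and 1.93 CPM (2.08 ± 0.44, adjusted p 0.00238 by edgeR). Gbp4, Gbp6 and Gbp9, which lie in the second mouse cluster of GBPs on chromosome 5, had log2FC values of 2.04 ± 0.29, 1.92 ± 0.18 and 1.21 ± 0.14, and Tgtp2 one of 1.62 ± 0.28, all called. The log2FC of the IRG-like gene Gm4951 was 1.52 ± 0.22, also called. Gbp5, which promotes inflammasome assembly, was at 12.6 and 9.50 CPM in imCM-NF and at 12.14 and 12.9 CPM in imCM-AF, and the groups overlapped (log2FC 0.20 ± 0.17, adjusted p 0.42 by edgeR).

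In the interferon pathway upstream, 13 genes were tested, and the median log2FC was 0.08. Irf1 was at 36.8 and 34.9 CPM in imCM-NF and at 67.5 and 74.4 CPM in imCM-AF, with no overlap (log2FC 0.99 ± 0.10, adjusted p 2.16e-06 by edgeR). For Stat2, which acts in type I interferon signalling, the log2FC was 1.03 ± 0.13, also called. The ligand gene Ifng had 0 counts in all 4 libraries, where 3 counts would be between 0.248 and 0.335 CPM. The receptor chain Ifngr1 was at 48.9 and 58.2 CPM in imCM-NF and at 40.5 and 37.7 CPM in imCM-AF (-0.46 ± 0.11, adjusted p 0.00441 by edgeR), under the fold threshold. For Ifngr2 the log2FC was -0.10 ± 0.10 (adjusted p 0.506 by edgeR).

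Of 14 other interferon-gamma-induced genes, 10 were tested and 4 were called higher, against 6.15% of all tested genes, with a median of 0.47. These were Nlrc5 (1.99 ± 0.20), which switches on MHC class I genes, Cd274 (1.03 ± 0.23), the ligand of the receptor PD-1, the chemokine Cxcl10 (0.84 ± 0.15) and the immunoproteasome subunit Psmb8 (0.63 ± 0.12). Among 17 genes of the autophagy conjugation system and the inflammasome, with which these GTPases work on vacuoles, 2 were called, both higher, and the median was -0.07. Over all tested genes 11.1% were called, 6.15% higher, so this count is near the share called in either direction. The 2 genes were Trim21 (0.88 ± 0.14), a ubiquitin ligase, and Casp1 (2.26 ± 0.56), the inflammasome protease. Casp1 had only 2 and 3 counts in imCM-NF. Of 9 large GTPases with housekeeping roles in membranes, such as dynamins, mitofusins and atlastins, 0 were called by edgeR, and 0 by DESeq2, with a median of 0.19. By edgeR 5 had an unadjusted p below 0.05, as had 5516 of all 14041 tested genes. Under the fold threshold, Mfn1 (0.48, adjusted p 0.00502 by edgeR), Dnm1l (0.41, 0.00712) and Opa1 (0.39, 0.00747) were higher and Dnm1 (-0.53, 0.00864) was lower. At an adjusted p alone under 0.05, with no fold limit, 12.5% of all tested genes were higher in imCM-AF, as were all 7 tested members.

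**Figure D2:**
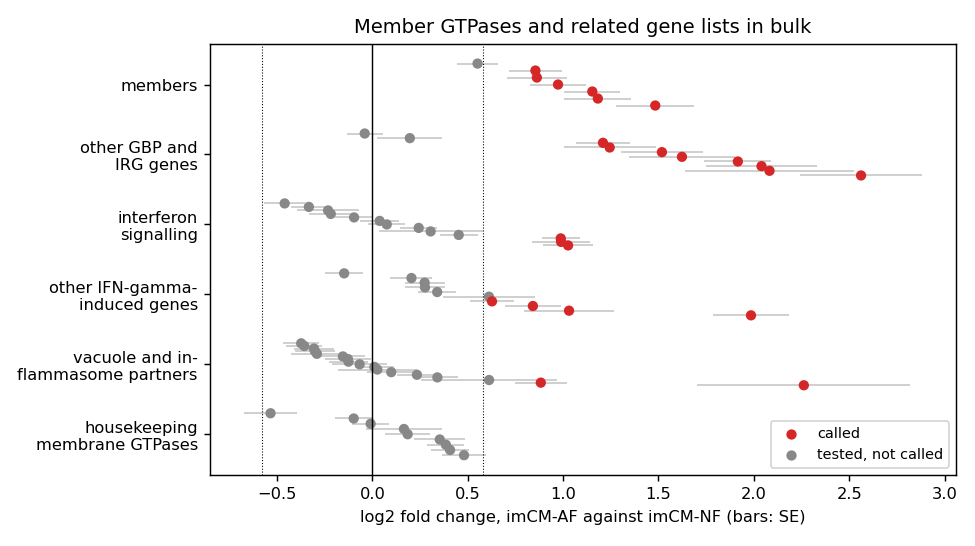
log2FC of imCM-AF against imCM-NF, with bars of 1 SE, for each tested gene of the members and of 5 related lists. Red points were called, grey points were not, and dotted lines mark 0.58 on either side of 0. Most GBP and IRG genes lie to the right of 0.58, whereas 0 of the 9 housekeeping GTPases were called.

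On the chips, wells carry a name given by the authors. Names that begin with AFNCM or NFNCM stand on the cardiomyocytes chip and names AF or NF with a number on the fibroblasts chip, and a further set (NCM0, AF0 and NF0) lies outside the co-culture wells that the study counted and is not explained in the sources used here. The names are not labels of the series, so they are used to describe and not to test. Summed member UMIs, as CPM of all UMIs, were 583.8 in AFNCM wells (95% exact Poisson interval 571.7 to 596.2, 515 wells) and 71.97 in NFNCM wells (67.4 to 76.7, 523 wells). That is a ratio of 8.11 (counting interval 7.58 to 8.69). On the fibroblasts chip they were 556.7 in AF wells (541.2 to 572.6, 219 wells) and 62.98 in NF wells (57.3 to 69.1, 256 wells), a ratio of 8.84 (8.02 to 9.76). Intervals cover counting error only and not the spread between cultures. The bulk ratio of summed members, in reads and not UMIs, was 1.97.

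Single well names gave the same order. AFNCM1, AFNCM2 and AFNCM3 were at 565.5, 691.8 and 491.4 CPM, and NFNCM1, NFNCM2 and NFNCM3 at 94.6, 56.2 and 68.0 CPM. AF1 and AF2 were at 547.8 and 566.8 CPM, and NF1 and NF2 at 55.8 and 70.8 CPM. NCM0_1 and NCM0_2 were at 67.3 and 84.0 CPM, within the range of the NFNCM names. AF0_1 and AF0_2 were at 374.1 and 271.7 CPM, between the AF and NF names, while NF0_1 and NF0_2, at 67.0 and 69.4 CPM, lay within the range of NF1 and NF2. The intervals of AF1, AFNCM1 and AF2 overlap. All 3 AFNCM names were thus above all 3 NFNCM names, and this was so for each of the 8 members too, where 14.1% of 12948 genes with at least 50 UMIs showed that pattern and 5.72% the opposite one. Both AF names were above both NF names for all 8 members, against 28.1% of 11647 genes. The same held for AF0 over NF0 for all 8 members, 6 of them with at least 50 UMIs, where 29.3% of genes showed it and 25.0% the opposite.

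**Figure D3:**
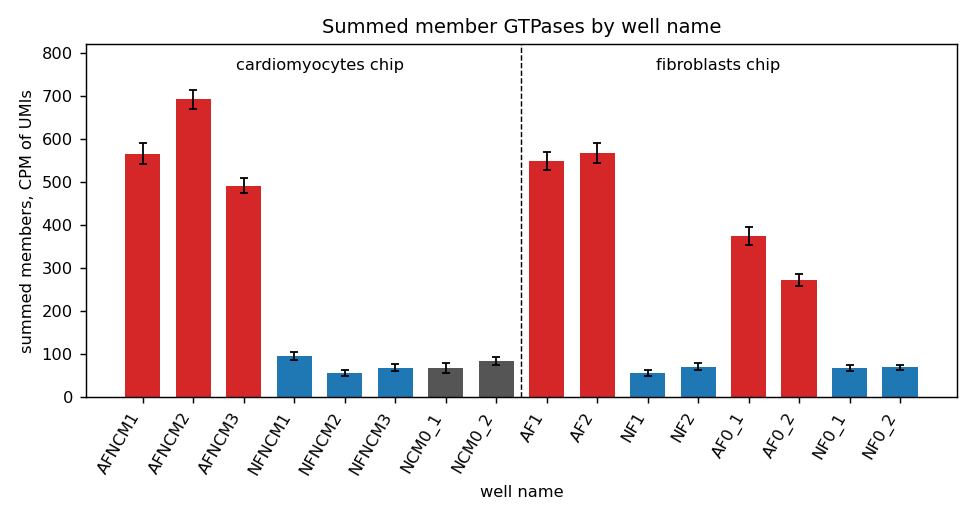
Summed member UMIs, as CPM, for each of the 16 well names, as bars that start at 0 with exact 95% Poisson intervals, in red for names with AF, blue for names with NF and grey for NCM0. A dashed line separates the chips. The 5 bars of AFNCM and AF wells lie between 491.4 and 691.8, and the 9 bars of NFNCM, NF, NF0 and NCM0 wells are at 94.6 or lower.

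Of the GBPs, Gbp2 and Gbp3 were detected in few wells of NF co-cultures, and Gbp7 in more. In NFNCM wells 2.10% held a UMI of Gbp2, 0.574% one of Gbp3 and 13.6% one of Gbp7. In NF wells the shares were 3.91, 1.95 and 13.7%. Gbp3 was at 15.96, 31.2 and 28.2 CPM in AFNCM1 to AFNCM3 and at 0, 0.446 and 0.433 CPM in NFNCM1 to NFNCM3, with 399 UMIs against 4 in all. Gbp7 was at 45.1, 78.6 and 35.4 CPM against 7.84, 6.02 and 8.22 CPM, a ratio of sums of 7.32 (5.92 to 9.15). Gbp2 was at 13.7, 25.5 and 18.9 CPM against 13.7, 1.11 and 0.866 CPM, so that AFNCM1 and NFNCM1 were nearly alike for this gene. In NFNCM1, 48 of the 54 Gbp2 UMIs came from 1 well and 4 of 183 wells held any, against 12 of 148 wells in AFNCM1. The ratio of the Gbp2 sums was 4.18 (3.18 to 5.57), and 17.4 without wells that held a UMI of a macrophage, T cell or NK cell marker. In AF1 and AF2, Gbp2 was at 59.7 and 63.6 CPM, against 2.97 and 2.94 CPM in NF1 and NF2, a ratio of 20.8 (13.5 to 33.9). The same ratio was 32.8 (16.5 to 76.7) for Gbp3 and 9.32 (7.503 to 11.7) for Gbp7. With the mean over wells that of Gbp3 was 61.6, and without wells holding such a marker UMI that of Gbp3 was 145.2 and that of Gbp7 5.67. In the fibroblast wells Gbp7 differed between the names AF1 (159.7 CPM) and AF2 (68.4 CPM) by more than their counting intervals. In AF1, 183 of the 741 Gbp7 UMIs came from 1 well, and 32.2% of AF1 and 30.6% of AF2 wells held any.

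Of the members, Irgm1 gave the most UMIs in NF, NF0, AF and AF0 wells, though in AF1 wells Gbp7 gave more (741 against 616). Irgm1 also did so in NFNCM wells, where 1 well held 82 of its 344 UMIs. Without the 1% of wells with the most member UMIs, Irgm1 was there at 17.4 and Iigp1 at 17.7 CPM. Irgm1 was at 127.2, 138.2 and 102.9 CPM in AFNCM wells and at 36.2, 18.7 and 25.3 CPM in NFNCM wells, and at 42.0 CPM in NF and 52.6 CPM in NF0 wells, where it made up 66.7% and 76.7% of all member UMIs. Igtp was at 109.0, 103.2 and 102.6 CPM in AFNCM wells and at 1.27, 7.58 and 6.06 CPM in NFNCM wells, a ratio of sums of 20.3 (15.9 to 26.4). In AF wells Igtp was at 54.2 CPM, with 476 UMIs, 169 of them in 1 well, against 5 UMIs in NF wells. Without wells that held a UMI of a macrophage, T cell or NK cell marker, Igtp in AF wells came to 29.6 CPM. The AF over NF ratio was 3.86 (3.41 to 4.39) for Irgm1 and 9.78 (5.87 to 17.45) for Irgm2. Irgm2 was at 27.7, 47.7 and 34.5 CPM in AFNCM wells and at 13.2, 9.14 and 6.28 CPM in NFNCM wells (4.05, 3.33 to 4.97). In the GENCODE gene models used here Irgm2 overlaps Igtp on the same strand, so the division of UMIs between them is uncertain.

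The effector Iigp1 gave more UMIs than any other member in AFNCM wells, at 219.9, 259.2 and 159.2 CPM. In NFNCM wells it was at 22.3, 12.7 and 20.6 CPM, a ratio of sums of 11.48 (10.1 to 13.1). It was at 73.9 and 107.3 CPM in AF1 and AF2 and at 1.89 and 0.588 CPM in NF1 and NF2, a ratio of sums of 70.9 (37.1 to 155.6) that was 29.2 with the mean over wells and 43.05 without wells holding a macrophage, T cell or NK cell marker UMI. Tgtp1 had 128 UMIs in AFNCM wells (8.48 CPM), 4 in NFNCM wells (0.306 CPM) and 0 in NCM0 wells, which allows up to 0.515 CPM. It had 119 UMIs in AF wells and 1 in NF wells, a ratio of 96.4 with a counting interval of 17.0 to 3841, and 38.7 without wells holding a UMI of those immune markers.

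**Figure D4:**
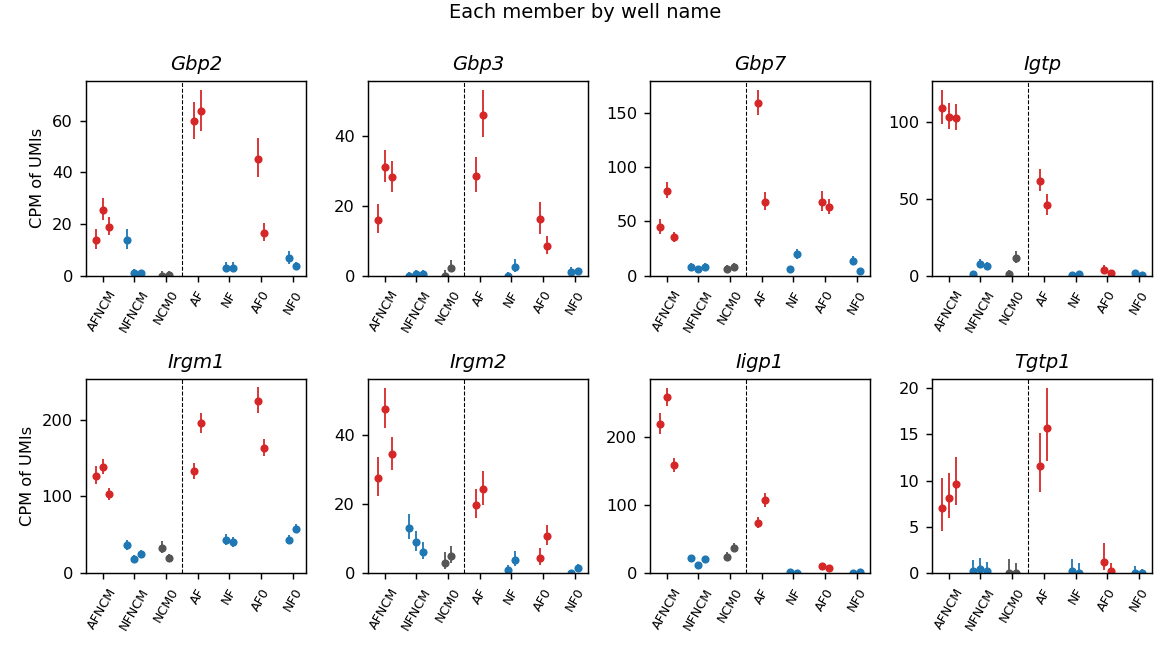
UMI counts as CPM of each member (8 panels, each with its own axis from 0) for the single well names, with exact 95% Poisson intervals. Red marks names with AF, blue names with NF, grey NCM0, and the dashed line separates the cardiomyocytes chip (left) from the fibroblasts chip (right). Iigp1 and Igtp are highest in AFNCM wells, and Gbp2 in AF wells.

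All 8 members passed 1.5-fold in AFNCM over NFNCM wells, where 20.9% of genes did so upward and 7.38% downward. The same was so of all 8 in AFNCM over NCM0 wells, where 22.1% did so upward, and of all 8 in AF over NF wells, where 27.9% did. Between NFNCM and NCM0 wells, both low in the members, 6 members had at least 50 UMIs. Of these 2 were over 1.5-fold higher in NFNCM (Gbp2, with 48 of its 63 UMIs in 1 well, and Irgm2), 1 was lower (Iigp1, 18.4 against 32.1 CPM) and 3 were neither (Gbp7, Igtp and Irgm1), against 12.8% of genes higher and 20.8% lower. Iigp1 was not past 1.5-fold with the mean over wells (ratio 0.770) or without the top 1% of wells (0.741), and Irgm2 was not without wells holding a UMI of those immune markers (1.38). Between AF and AF0 wells 7 of 8 members were past 1.5-fold higher in AF, where 25.5% of genes were higher and 27.8% lower. Between NF and NF0 wells 3 members had at least 50 UMIs, of which Gbp7 was past 1.5-fold higher in NF (1.64), Gbp2 past 1.5-fold lower (0.609) and Irgm1 neither, where 13.0% of genes were higher and 24.8% lower. These calls were lost with the mean over wells (Gbp7 1.011, Gbp2 0.710), and 31 of the 59 Gbp2 UMIs of NF0 wells came from 1 well. In AF over AF0 wells the sizes were unequal. Igtp was 21.7-fold higher (14.0 to 35.3) and Iigp1 10.9-fold higher (8.52 to 14.2), while Gbp7 was 1.78-fold higher (1.60 to 1.98) and Irgm1 was at 162.2 CPM in AF and 186.4 CPM in AF0 wells. Gbp2, Gbp3, Irgm2 and Tgtp1 had ratios of 2.25, 3.26, 2.64 and 22.8. Without wells holding a UMI of those immune markers the ratio of Igtp was 9.10 and that of Tgtp1 8.64, and with the mean over wells that of Gbp7 was 2.77. In AF0 wells, 225 of the 550 Gbp7 UMIs came from 1 well, and in AF wells 169 of the 476 Igtp UMIs did. With the gene minimum alone the ratio of Gbp3 was 1.61. In AF0 over NF0 wells, 6 members had at least 50 UMIs and all 6 were past 1.5-fold higher, where 24.7% of genes were.

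The make-up of the member UMIs differed between AFNCM and AF wells. A UMI is counted once per tagged molecule, so these shares are not scaled by length. GBPs gave 17.2% of the member UMIs in AFNCM wells (exact binomial interval 16.4 to 18.0) and 38.6% in AF wells (37.3 to 40.01). By name this was 13.2, 19.6 and 16.8% in AFNCM1 to AFNCM3 and 45.3 and 31.4% in AF1 and AF2, which do not overlap. The names of NF wells showed no such order, at 15.9 and 35.3% in NF1 and NF2 and 22.7, 13.5 and 14.0% in NFNCM1 to NFNCM3. Iigp1 gave 36.1% in AFNCM and 16.1% in AF wells, and Igtp 17.9% and 9.74%. As levels, Igtp, Irgm2 and Iigp1 were over 1.5-fold lower in AF than in AFNCM wells, at ratios of 0.520, 0.581 and 0.425. Gbp2, Gbp7 and Tgtp1 were over 1.5-fold higher, at 3.05, 2.17 and 1.60, and Gbp3 and Irgm1 were neither, at 1.396 and 1.33. With the mean over wells Irgm2 came to 0.947 and Tgtp1 to 1.08, neither past 1.5-fold. Of all genes 34.1% were higher and 20.4% lower, and chip and kind of cell cannot be told apart here. In NF over NFNCM wells 6 members had at least 50 UMIs, of which Gbp7 (1.70) and Irgm1 (1.60) were past 1.5-fold higher and Gbp2 (0.612), Igtp (0.137), Irgm2 (0.241) and Iigp1 (0.0689) lower, where 35.4% of genes were higher and 23.1% lower. Without wells holding a UMI of those immune markers, Gbp2 turned to 3.03 and Irgm1 came to 1.19, and without the top 1% of wells Gbp7 came to 1.425.

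**Figure D5:**
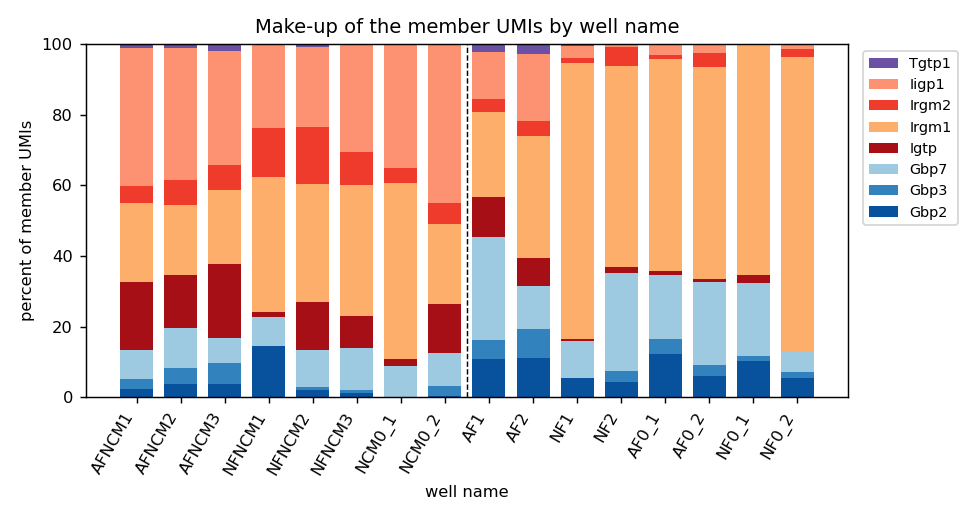
Percent of all member UMIs that each member contributed, as stacked bars for the 16 well names, with the GBPs in blue, Irgm1 in orange, the other IRGs in reds and Tgtp1 in purple. The dashed line separates the cardiomyocytes chip from the fibroblasts chip. Irgm1 fills over 50% of the bars of NF, NF0 and AF0 wells, while Iigp1 is the largest part of the 3 AFNCM bars.

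The chips were checked against markers. Cardiomyocyte markers summed to 30270 CPM in AFNCM and 34960 CPM in NFNCM wells, and to 539.8 CPM in AF and 3145 CPM in NF wells. Fibroblast markers summed to 2543 CPM in AFNCM, 1021 CPM in NFNCM, 8532 CPM in AF and 3009 CPM in NF wells. NF wells were thus poorly separated by these markers. The fibroblast marker sum was higher in AFNCM than in NFNCM wells and in AF than in NF wells. It was lower in AF0 (3236 CPM) than in NF0 wells (4185 CPM), and in bulk it was lower in imCM-AF. Wells were split by the share of cardiomyocyte markers among cardiomyocyte and fibroblast marker UMIs, over 90% or under 10%, a range of a score and not a cell type. In cardiomyocyte-marker wells the summed members were at 622.8 CPM in AFNCM (607.3 to 638.6, 327 wells) and at 64.8 CPM in NFNCM (59.9 to 70.1, 417 wells), a ratio of 9.61 (8.85 to 10.4). In fibroblast-marker wells they were at 573.8 CPM in AF (197 wells) and 54.6 CPM in NF (50 wells), a ratio of 10.5 (8.08 to 13.9). Another 57 AFNCM and 23 NFNCM wells lay between 80% and 90%, and 7 AF and 53 NF wells between 10% and 20%. For AFNCM over NFNCM and for AF over NF the ratio of the summed members was thus as large in wells of the labelled kind. For AF0 over NF0 it was 3.56 (2.97 to 4.30) in fibroblast-marker wells against 4.53 in all wells. Single members moved either way. For AFNCM over NFNCM, Gbp2 fell to 2.204 (1.571 to 3.129) in cardiomyocyte-marker wells against 4.18 in all wells, and Irgm1 rose to 8.779 against 4.626. For AF over NF, Irgm2 fell to 2.575 (1.277 to 6.063) in fibroblast-marker wells against 9.78, and Gbp7 rose to 14.09 against 9.32. In NF fibroblast-marker wells Irgm2 had 8 UMIs and Gbp7 had 9.

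Within AFNCM wells the members also split by these markers. Igtp was at 127.5 CPM in cardiomyocyte-marker wells and at 61.8 CPM in the 182 wells between the limits, and Iigp1 at 269.0 and 99.7 CPM. Gbp2 was at 11.6 and 33.2 CPM, Gbp3 at 18.6 and 39.5 CPM, Gbp7 at 38.8 and 78.6 CPM and Tgtp1 at 3.97 and 15.6 CPM. Irgm1 was at 106.1 and 154.2 CPM and Irgm2 at 47.2 and 20.7 CPM. On 1 chip, Igtp, Irgm2 and Iigp1 were thus higher in the wells richest in cardiomyocyte markers, and the GBPs, Irgm1 and Tgtp1 in the wells between the limits.

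Macrophage markers summed to 456.6 CPM in AFNCM and 642.0 CPM in NFNCM wells, and to 56.6 CPM in AF and 224.5 CPM in NF wells. By name the order was mixed, with 159.6, 454.3 and 639.3 CPM in AFNCM1 to AFNCM3, 947.1, 691.5 and 333.0 CPM in NFNCM1 to NFNCM3, and 340.4 CPM in NCM0 wells. Of the 7 markers of T and NK cells, which can secrete interferon-gamma, 6 were in the matrices and they summed to at most 0.596 CPM in any kind of well. In the bulk libraries 5 of the 7 (Cd3e, Cd3g, Cd2, Nkg7 and Gzmb) were at 0 counts, Klrb1c had 1 count in all, and Trac had 10 and 16 counts in imCM-NF and 14 and 15 in imCM-AF. Endothelial markers summed to 290.1 CPM in AFNCM and 90.1 CPM in NFNCM wells, and to 328.2 CPM in AF and 262.0 CPM in NF wells. Without wells holding a macrophage, T cell or NK cell marker UMI, the AFNCM over NFNCM ratio of summed members was 7.805, against 8.11 in all wells. That of AF over NF was 7.85, against 8.84. The part of these cell types in the result was not tested.

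The depth of wells differed, so each well was thinned to 5000 UMIs and shallower wells were left out. A member UMI was then seen in 71.2% of 438 AFNCM wells (exact binomial interval 66.7 to 75.4) and in 16.6% of 410 NFNCM wells (13.1 to 20.6). It was seen in 58.2% of 208 AF wells (51.1 to 65.0) and 18.8% of 223 NF wells (13.9 to 24.6). In AF0 and NF0 wells the shares were 56.8% and 13.2%, and 43 of 215 NCM0 wells held one. Before thinning, the shares were 77.7% and 37.5% in AFNCM and NFNCM wells, whose median depths were 19710 and 18770 UMIs, and 80.8% and 41.0% in AF and NF wells, with 28920 and 17160 UMIs. Iigp1 was seen in 34.2% of thinned AFNCM wells and 5.12% of NFNCM wells, and Irgm1 in 30.3% of AF wells and 12.11% of NF wells. At least 3 different members were seen in 15.1% of AFNCM wells, in 13.0% of AF wells and in 0 of 410 NFNCM wells, which allows up to 0.732%. The 5 negative control wells of each chip held 2 and 0 member UMIs among 1465 and 3587 UMIs.

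Member UMIs were spread unevenly over wells. The tenth of wells with the most held 50.7% of the member UMIs in AFNCM wells, 50.7% in AF wells, 76.7% in NFNCM wells and 69.2% in NF wells, and the highest single well of AFNCM held 298. These shares are not thinned and move with depth. Without the 1% of wells with the most member UMIs for their depth, the ratio of AFNCM to NFNCM was 8.45 and that of AF to NF 9.96. In that setting Irgm1 in NFNCM wells was at 17.4 CPM in place of 26.3 CPM.

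The genes most like the summed members were sought among 9560 genes with at least 500 UMIs, by Pearson correlation of log2(CPM + 1) over the 16 well names, which share 2 chips and their depths. The summed members were high in the AFNCM, AF and AF0 names and low in the others. A gene split in the same way therefore has a high r, whether or not it varies with the members within a kind of well. The 8 highest were Trim30a (r = 0.974), Ifi44 (0.971), Xaf1 (0.965), Usp18 (0.958), Lcn2 (0.956), Irf7 (0.953), Oas1g (0.951) and Isg15 (0.950). Of these, Usp18 removes the ubiquitin-like protein made by Isg15, Irf7 is a transcription factor of the type I interferon response, and Oas1g belongs to a family of antiviral synthetases. Ifi44 was at 77.3 CPM in AFNCM and 1.38 CPM in NFNCM wells, and at 84.3 CPM in AF and 0.422 CPM in NF wells. Lcn2, which encodes the iron-siderophore binding protein lipocalin 2, was at 94.9 and 0.459 CPM, and at 282.2 and 2.95 CPM.

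Upstream genes were also measured in the single cells. Irf1, called higher with AFs in bulk, was at 17.9 CPM (15.8 to 20.2) in AFNCM and 21.2 CPM (18.8 to 23.9) in NFNCM wells, with overlapping intervals. In AF and NF wells Irf1 was at 39.4 CPM (35.4 to 43.8) and 47.8 CPM (42.9 to 53.2). Ifngr1 was at 42.2, 39.7, 52.4 and 53.6 CPM in AFNCM, NFNCM, AF and NF wells, and Ifngr2 at 119.1, 132.8, 63.1 and 86.0 CPM. Ifng had 0 UMIs in all 4 of these kinds of well, which allows up to 0.199 CPM in AFNCM and 0.342 CPM in AF wells, and 1 UMI each in NCM0 and AF0 wells. Ifnb1 had 1 UMI in all, in NF0 wells.

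Among AFNCM, NFNCM, AF and NF wells, related GTPases were highest in AFNCM wells in part and in AF wells in part. Summed over the 16 other GBP and IRG genes in the matrices, the level was 457.6 CPM in AF0, 318.5 CPM in AF and 275.5 CPM in AFNCM wells. This sum was lower in AF than in AF0 wells, unlike that of the members. F830016B08Rik was at 137.7 CPM in AFNCM, 7.58 CPM in NFNCM, 27.1 CPM in AF and 0.141 CPM in NF wells, highest in AFNCM wells as Iigp1 was. Gvin1 was at 75.9, 6.05, 155.6 and 19.8 CPM, and at 274.3 CPM in AF0 wells, higher in AF than in AFNCM wells as Gbp2 and Gbp7 were. Tgtp2 was at 20.3, 0.383, 44.3 and 0.703 CPM, Gbp9 at 5.63, 0.689, 16.5 and 0.141 CPM, and Gbp4 at 2.25, 0.995, 3.53 and 0.141 CPM. Gbp5 and Gbp6 were not analysed in the single cells.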

How the data were processed

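The members and gene lists were chosen with earlier results of these data known. imCMs and fibroblasts were separated by sorting of dye-labelled cells per the study's methods and by centrifugation per the labels, and which was used for the bulk libraries is not settled here. For bulk RNA the authors aligned reads to mm10 with subread, kept uniquely placed reads and deposited raw counts per RefSeq gene from featureCounts. Whether strand was used is not given in the sources used here. For single cells the authors deposited counts of UMIs per Ensembl gene and well (STAR, mm10, featureCounts), with counts of read pairs and a name per well; doublets were not called here, and live single cells had been selected by imaging. Names were matched through RefSeq (GRCm38.p6) and GENCODE tables.

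Bulk groups were compared with edgeR 4.0.16 in R 4.3.3 (quasi-likelihood test, TMM, group as the only term, Benjamini-Hochberg over 14041 genes). The fit was tested on simulated data. With 2 libraries a group, p-values and SEs rest on the spread between these libraries, which may be technical. For each gene edgeR draws this spread towards that of other genes, so it is not the gene's own spread alone. Replicates differed by more than counting noise (chi-square per degree of freedom 8.60 and 8.42). Exon lengths are the union of GENCODE exons. Identifiers without a symbol, 1904 of them, held 3.52% of the counts and were kept in the fit.

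A well entered if 500 or more genes were detected, if more than 50% of its read pairs left after the contaminant screen were aligned, and if its UMIs lay within 2 SD of the mean of all wells other than controls. Mitochondrial and spike-in columns were left out. UMIs were summed per well name, with exact 95% Poisson intervals for CPM and exact binomial intervals for shares, and a count of 0 was taken to allow 3 counts. Python 3.11 with scipy was used, and wells were thinned once with a fixed seed.

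By rule the 8 members were named, with values where they bear on a comparison. Of each list the genes called were named, up to the 6 with the largest absolute change, with a fixed set of pathway genes (among them Irf1, Ifng, Ifngr1, Ifngr2, Tgtp2, Gbp4, Gbp5, Gbp6 and Gbp9). A gene withheld for evaluation is not reported here. Alternatives covered DESeq2, limma-voom, other scalings, filters and thresholds, a replicate block, leaving out each library, and other choices of wells.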

Additional observations from a re-analysis of the deposited data

How the results depend on the processing

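No member changed direction in any setting. By the DESeq2 test Iigp1 (log2FC 1.47 ± 0.53, adjusted p 0.0446) and Igtp (1.17 ± 0.43, adjusted p 0.0475) passed the adjusted p threshold narrowly. Their SEs were larger there than by edgeR. Of 91 member log2 fold changes under other settings, 86 kept their call, 1 lost it (Gbp7 without imCM-NF replicate 2) and 4 gained it, all of them Gbp2. The number of members called was 6, between 5 and 7 when 1 library was left out, and 3 at a log2 fold change over 1. The number of genes called was 1564, between 879 and 1929 when 1 library was left out (988 without imCM-AF replicate 2), 3789 by adjusted p alone and 565 at a log2 fold change over 1. Library size scaling moved the split from 864 higher and 700 lower to 1005 and 575, while the members called came to 7. The replicate differences of the 2 groups did not go together over genes (correlation -0.153). With 1 difference per group this cannot show whether the replicates were made as pairs. With a replicate block 1430 genes and 6 members were called, and with the numbers crossed, a setting chosen after seeing the data, 1668 and 6. Among the lists, the number of other interferon-gamma-induced genes called lay between 1 and 5 when 1 library was left out, and that of vacuole and inflammasome partners between 1 and 2, with 1 under DESeq2. For housekeeping GTPases it lay between 0 and 2. Tgtp1, with 2 to 10 counts in a bulk library, was tested only with no filter.

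In the single cells, AFNCM exceeded NFNCM and AF exceeded NF by over 1.5-fold for each member under all settings of wells. With the mean over wells of the well CPM, the ratio of summed members was 6.67 for AFNCM over NFNCM, 7.37 for AF over NF and 1.16 for NFNCM over NCM0. Without wells holding a macrophage, T cell or NK cell marker UMI the ratio was 7.85 for AF over NF, 0.815 for NFNCM over NCM0 and 4.06 for AF0 over NF0. Without the 1% of wells with the most member UMIs it was 9.96 for AF over NF and 5.15 for AF0 over NF0, and with the gene minimum alone 4.94 for AF0 over NF0. The main ratios were 8.11, 8.84, 0.931 and 4.53, in the order AFNCM over NFNCM, AF over NF, NFNCM over NCM0 and AF0 over NF0. Shares of wells with a member UMI rise with depth by construction. Thinned to 10000 UMIs they were 80.7% in AFNCM, 29.8% in NFNCM, 76.6% in AF, 27.4% in NF, 74.2% in AF0 and 23.4% in NF0 wells, and not thinned 77.7%, 37.5%, 80.8%, 41.0%, 90.6% and 44.4%, with 31.8% in NCM0 wells. The cause of the other moves was not tested.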

Other observations

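Among the genes ranked below the 8 most like the members, Mndal, Eif2ak2, Ifi27l2a and Ifit1 followed at r = 0.945, 0.944, 0.944 and 0.936 over the 16 well names, and these were named after their values were seen. Ifit1, an RNA-binding antiviral protein, was at 161.1 CPM in AFNCM, 1.84 CPM in NFNCM, 15.6 CPM in NCM0, 133.2 CPM in AF and 3.79 CPM in NF wells. Eif2ak2, the RNA-sensing kinase PKR, was at 83.7, 18.6, 20.9, 95.1 and 16.5 CPM in the same order. The 5 positive control wells of each chip held 1 member UMI each among 19026 and 49439 UMIs.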
